A study of Mus musculus with 12 samples.

Results

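The DNA replication and cell cycle genes described here are the 81 genes, of 14275 listed in any library, whose symbols belong to named families. The families are the MCM helicase, the origin recognition complex (Orc), GINS, replication factor C (Rfc), the replicative DNA polymerases and primase, cyclins A, B, D and E, the kinases Cdk1, Cdk2, Cdk4 and Cdk6, the E2F factors, and the genes named Cdc with a number. Pcna, Mki67, Top2a, Rrm1 and Rrm2 complete the set. The choice by symbol also takes in Cdc-named genes that work elsewhere, such as Cdc42, a small GTPase of the actin cytoskeleton, Cdc37, a co-chaperone of HSP90, and Cdc5l and Cdc40, which act in splicing. Of 85 annotated symbols that fit, Ccnb3, Cdc20b, Cdc34b and E2f7 were listed in no library.

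RNA sequencing had been done on BV-2, an oncogene-immortalised line derived from mouse microglia that divides continuously in culture, in 4 groups of 3 libraries. The first group received lipopolysaccharide (LPS), the bacterial outer-membrane molecule that triggers inflammatory activation, another received nicotinamide mononucleotide (NMN), a precursor of NAD, another received both (LPS+NMN), and Control received neither, by its label. Doses and exposure times are not given in the sources used here. Separate cultures are not stated for the replicates, and the p-values therefore cover only the spread among these libraries, which may be technical. The series' design text sets LPS+NMN against LPS as its main question.

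Each deposited file is a catalogue of transcript events: first and last exons, retained introns, skipped exons and alternative exon ends assigned to a gene. It holds no read count, expression level or depth, and the value analysed is the number of distinct events listed for a gene in a library, which is a measure of transcript variety and not of expression. An event listed in both an exact and an approximate form counts once in each. First and last exons were told apart by a single position each. A length given for one is that in 1 library listing it, and may differ in the others. A library held between 50784 and 55787 events, the most in Control 1. The labels call the cell type macroglia. Of 13 microglia and macrophage markers, 11 were listed in all 12 libraries, among them Csf1r, Itgam and Aif1, with Cx3cr1 in 4 libraries and P2ry12 in 2. Of 7 astrocyte markers, Slc1a2 was in all 12 libraries, Gfap in 6 and S100b in 1, and Aqp4, Aldh1l1, Slc1a3 and Gja1 were in none. In a bulk sample, fewer cycling cells and less RNA per cycling cell cannot be told apart.

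A cell prepares to copy its DNA in G1, when the origin recognition complex, Cdc6 and the MCM helicase are loaded onto origins. Cyclin E with Cdk2, and the kinase Cdc7, then fire those origins by recruiting Cdc45 and GINS, and polymerases alpha, delta and epsilon copy the DNA with Pcna as a sliding clamp. E2F factors drive transcription of many of these genes at the entry to S phase, and cyclin B with Cdk1 starts mitosis, which the anaphase-promoting complex ends by marking cyclins for destruction. Resting microglia divide rarely in the adult brain, and proliferate after injury or infection.

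Nearly all of the replication and cell cycle set was listed throughout. Of the 81 genes, 80 were listed in all 12 libraries (98.8%), against 10858 of 14275 genes overall (76.1%). The exception was Ccna1, the cyclin A of the germ line, which had 2 events in LPS+NMN 2 and 0 in the other libraries. A gene of the set had a median of 3 events per library, the same as the median over all listed genes. Of the set, 10 genes had the same number of events in every library: Pcna, Mcm3, Mcm5, E2f1, Rfc3, Pold4, Pole4, Cdc23, Cdc25b and Cdc40. Counting only events on the annotated strand of the gene, 77 genes were listed in all 12 libraries: Pole2 then dropped out of LPS 1, LPS 3 and Control 3, Gins3 out of Control 1 and Orc1 out of Control 2. Cdc23, E2f1 and Pole4 then varied by 1 event. None of the 81 entered or left the catalogues between groups, meaning listed in all 3 libraries of a group and none of the other. Over all genes, 0.455% entered and 0.266% left in LPS against Control, 0.343% entered and 0.259% left in NMN against Control, 0.504% entered and 0.21% left in LPS+NMN against Control, and 0.105% entered and 0.063% left in LPS+NMN against LPS.

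Summed over the 81 genes, LPS libraries held 339, 333 and 351 events, NMN libraries 320, 345 and 341, LPS+NMN libraries 317, 322 and 344, and Control libraries 350, 324 and 326. The groups overlapped. As a share of all events in the library, the set made up 0.643%, 0.646% and 0.666% in LPS, 0.630%, 0.647% and 0.627% in NMN and 0.603%, 0.609% and 0.640% in LPS+NMN, against 0.627%, 0.61% and 0.639% in Control. LPS libraries were all above Control and LPS+NMN libraries, and overlapped NMN libraries. The number of events had its widest ranges in Cdc14b (7 to 20), Mcm10 (4 to 16), Ccnd3 (3 to 14) and Orc6 (3 to 14), as the plot of events by gene and library shows.

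**Figure D1:**
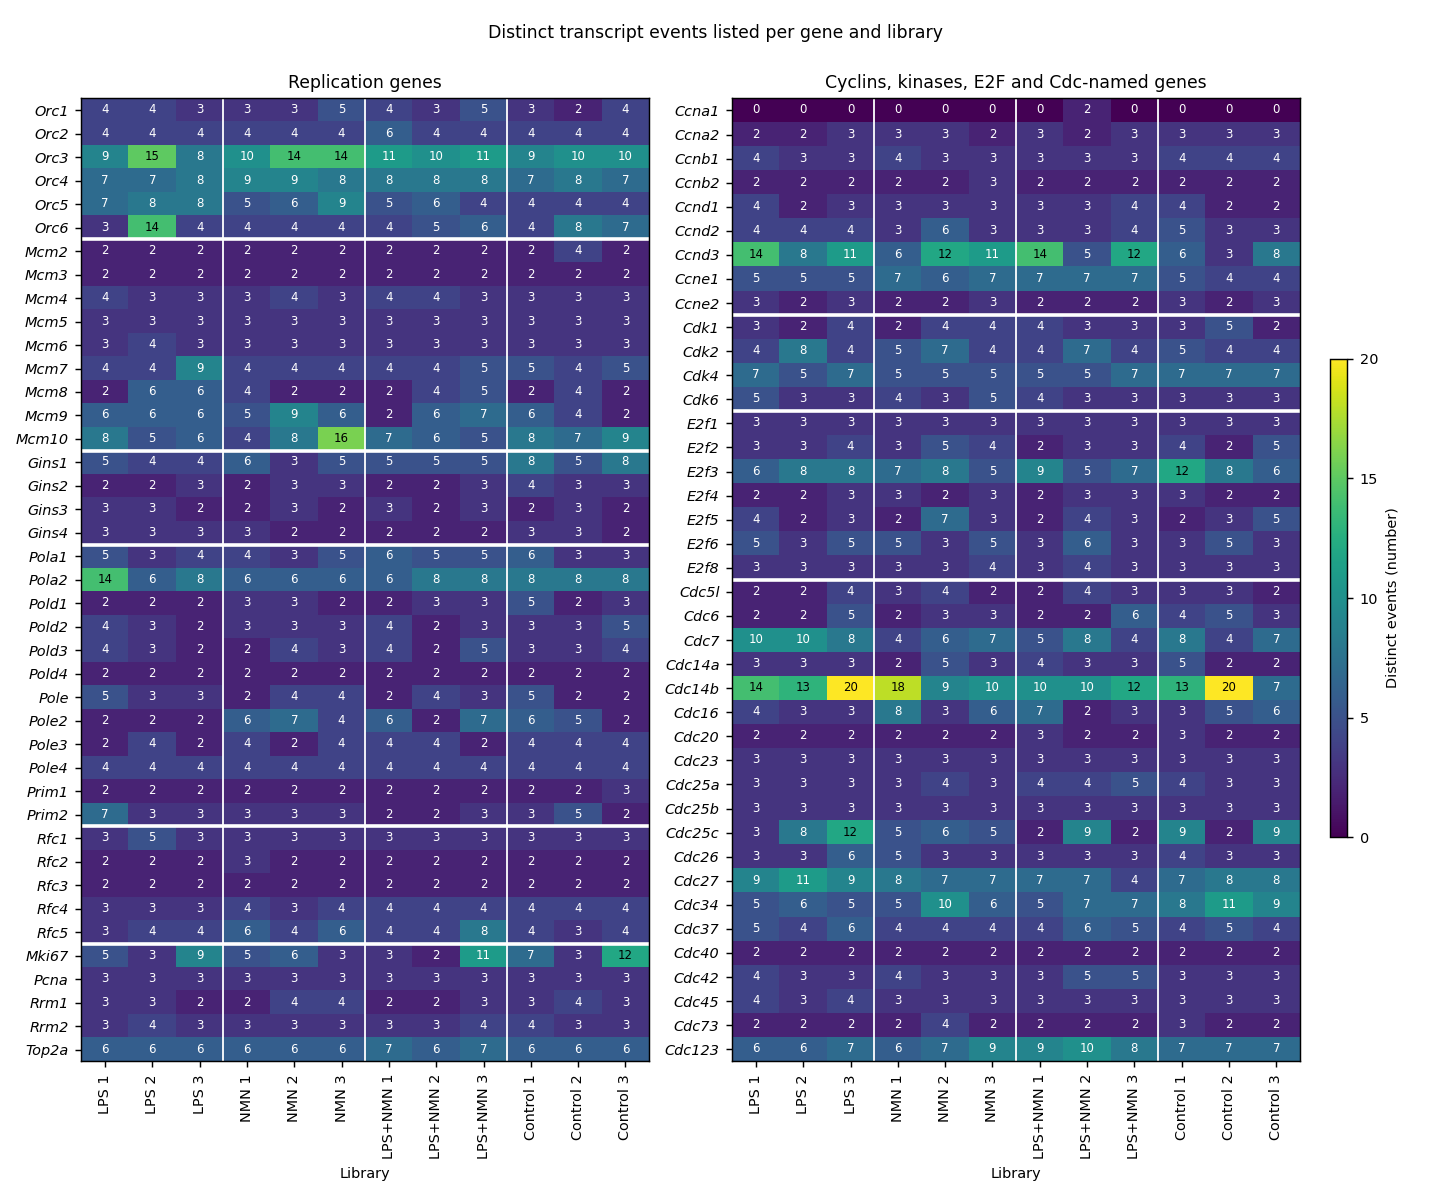
Number of distinct transcript events (colour and printed number) for each of the 81 genes (rows) in each of the 12 libraries (columns, grouped as LPS, NMN, LPS+NMN and Control). Pcna keeps 3 events in every library, whereas Cdc14b reaches 20 in LPS 3 and in Control 2.

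The events of these genes recurred across libraries more often than those of all genes. An event can be in all 12 libraries only if its gene is, as were 98.8% of the set and 76.1% of all genes. How much of the difference comes from this was not tested. Of 795 distinct events, 181 were in all 12 libraries (22.8%, against 16.2% of the events of all genes) and 305 were in 1 library alone (38.4%, against 44.0%). Last exons recurred most: 39.3% of the 183 last exons were in every library, against 19.2% over all genes. First exons followed, with 30.7% of 254 in every library against 20.4%. The splicing events did not share this: 10.3% of 136 skipped exons were in every library, against 12.2% over all genes, and 9.04% of 166 alternative exon ends, against 10.5%. Of 28 cassettes of several skipped exons, 0 were in every library.

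With exact and approximate listings of an exon merged, 56 of the genes had 123 skipped exons, of which 13, in 12 genes, were in every library. All 13 matched a single annotated exon by its length and the lengths of both flanking introns, and skipping was already annotated for 11. Of the 13, 12 had a length divisible by 3 (92.3%), so that leaving out a coding one keeps the reading frame, against 1215 of 2371 such exons over all genes (51.2%). Among exons skipped in 1 library alone the share was 32.7% (18 of 55), against 38.8% over all genes. The exception of the 13 was a 97-nt UTR exon of Cdc26, a subunit of the anaphase-promoting complex. These 13 exons are few, and no test was made of the shares.

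**Figure D2:**
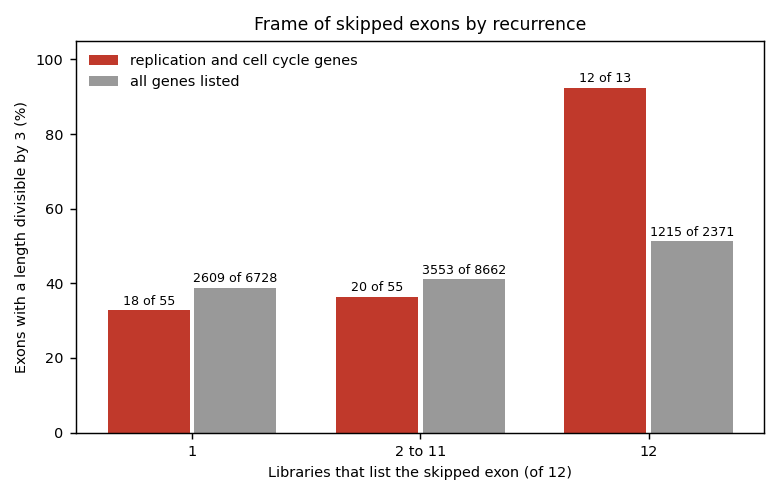
Percentage of skipped exons whose length is divisible by 3, by the number of libraries that list the exon, for the replication and cell cycle genes and for all genes. For exons skipped in all 12 libraries it is 92.3% (12 of 13) in the set and 51.2% over all genes.

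The skipped exons below are shown because they were listed as skipped in every library and are whole, coding and divisible by 3, in genes that act in sequence: Orc2 and Mcm4 in licensing, Cdc45 and Cdc7 in firing, Cdk2 at the entry to S phase and Ccnb1 at mitosis. They are given 5′ to 3′ on the strand of the gene, from GENCODE M21 transcripts with GRCm38 positions. All are in lower case, since the whole exon is what is included or left out.
Orc2, exon 4 of 18, chr1:58500241-58500384, minus strand: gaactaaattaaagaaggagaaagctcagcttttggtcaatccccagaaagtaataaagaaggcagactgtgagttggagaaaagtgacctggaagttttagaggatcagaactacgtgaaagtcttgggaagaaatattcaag
Mcm4, exon 6 of 16, chr16:15635049-15635144, minus strand: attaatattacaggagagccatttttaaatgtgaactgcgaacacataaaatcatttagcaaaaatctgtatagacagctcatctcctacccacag
Cdc45, exon 5 of 20, chr16:18808732-18808869, minus strand: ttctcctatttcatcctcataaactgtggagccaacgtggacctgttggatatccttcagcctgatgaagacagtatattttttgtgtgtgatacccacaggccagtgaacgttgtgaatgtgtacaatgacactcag
Cdc7, exon 8 of 12, chr5:106974601-106974696, plus strand: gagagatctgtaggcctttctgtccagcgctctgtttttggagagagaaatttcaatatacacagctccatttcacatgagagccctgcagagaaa
Cdk2, exon 6 of 8, chr10:128699976-128700119, minus strand: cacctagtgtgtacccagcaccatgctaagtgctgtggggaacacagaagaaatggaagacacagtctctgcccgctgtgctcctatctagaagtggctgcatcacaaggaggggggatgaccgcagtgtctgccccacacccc
Ccnb1, exon 4 of 9, chr13:100783465-100783647, minus strand: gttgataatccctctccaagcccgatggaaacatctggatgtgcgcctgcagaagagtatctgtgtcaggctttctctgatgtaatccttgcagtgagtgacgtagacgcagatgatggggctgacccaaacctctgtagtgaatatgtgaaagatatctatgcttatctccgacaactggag

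Rodents are known to make a longer form of Cdk2 by including an internal exon, and the 144-nt Cdk2 exon was listed with and without skipping in every library. The skipped exon of Ccnb1 (183 nt) lies in the coding sequence of cyclin B1, the partner of Cdk1 in mitosis. The skipped exon of Cdc7 has 96 nt, as has that of Mcm4.

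Alternative exon ends in every library were acceptor choices, in which the same exon starts at different positions. In Cdc27 and E2f3 the longer exon adds 18 nt and so keeps the frame, whereas in Pola2 it adds 29 nt and in Orc4 52 nt, which do not. The Orc4 choice is between 57 and 109 nt, and a form of 60 nt, which adds 3 nt, was also in every library. The stretches below are shown because each choice was listed in all 12 libraries. Capitals mark the segment that the longer form has and the shorter lacks, and the lower-case bases are the start of the exon common to both. In Orc4 the last 3 capitals are also in the 60-nt form.
Orc4, chr2:48910231-48910294, minus strand: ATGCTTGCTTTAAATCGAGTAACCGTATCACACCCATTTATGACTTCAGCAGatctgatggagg
Pola2, chr19:5961175-5961215, minus strand: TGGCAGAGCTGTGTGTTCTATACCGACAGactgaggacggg
E2f3, chr13:29918766-29918795, minus strand: CTCCAAAATCTCCCTCAGaaaaaacgcggt
Cdc27, chr11:104526155-104526184, minus strand: ACTTTTTGTGTTTTACAGtctgttgcaaga

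Promoters were examined because E2F is a known regulator of many of these genes. The 250 bases before the start of each gene, from RefSeq on GRCm38.p6, were searched on both strands for the E2F letters TTTCCCGC, TTTCGCGC, TTTGCCGC and TTTGGCGC. Of 66 genes of the set with a promoter in that table, 14 held a match (21.2%), against 400 of 11228 genes in the catalogues (3.56%). The 14 were Cdc25a, Cdc6, Cdk1, Cdk2, E2f3, Gins3, Mcm5, Mcm6, Mcm7, Orc1, Orc3, Pola1, Pole4 and Rfc3. CCAAT, the letters bound by NF-Y, were found in 63.6% of the set against 40.3%, and TTTGAA, a core of the element of late cell cycle genes, in 22.7% against 13.7%. A match is a description of the letters and not a site shown to be bound, and no expression level is available to set beside it. The windows below are shown for genes of origin licensing and of CDK control, with the matched letters in capitals; in Mcm5 and Mcm6 overlapping matches on opposite strands form a single run.
Orc1, chr4:108579407-108579453, plus strand: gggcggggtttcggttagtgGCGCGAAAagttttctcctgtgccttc
Cdc6, chr11:98907993-98908040, plus strand: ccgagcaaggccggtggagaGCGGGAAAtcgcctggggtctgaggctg
Mcm5, chr8:75109336-75109387, plus strand: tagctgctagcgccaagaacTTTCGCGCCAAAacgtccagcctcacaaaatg
Mcm6, chr1:128359725-128359835, minus strand: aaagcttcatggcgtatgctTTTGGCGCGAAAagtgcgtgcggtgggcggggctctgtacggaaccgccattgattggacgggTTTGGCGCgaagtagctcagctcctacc
Cdk1, chr10:69353016-69353063, minus strand: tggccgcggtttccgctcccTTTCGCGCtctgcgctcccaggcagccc
Cdk2, chr10:128705164-128705211, minus strand: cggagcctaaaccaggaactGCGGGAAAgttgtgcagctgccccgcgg
Cdc25a, chr9:109875492-109875539, plus strand: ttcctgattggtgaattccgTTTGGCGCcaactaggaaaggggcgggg

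Among the licensing genes, Orc5 had the smallest p-value for LPS against Control. Orc5 (chr5:22486485-22550429, minus strand, GRCm38), a subunit of the origin recognition complex, had 7, 8 and 8 events in LPS, 5, 6 and 9 in NMN and 5, 6 and 4 in LPS+NMN, against 4, 4 and 4 in Control. Every LPS and every NMN library was above every Control library, and every LPS+NMN library was below every LPS library. Of the 21 distinct events of Orc5, 14 were listed in 1 library alone, and each group held some of these. NMN 1 was above Control through such an event, a first exon. On the log2(events + 1) scale the difference was 0.79 ± 0.20 (SE) for LPS against Control and 0.58 ± 0.20 for NMN against Control, with limma adjusted p of 0.181 and 0.491, so neither passed 0.05. For LPS+NMN against LPS it was -0.54 ± 0.20 (limma adjusted p = 0.869). An alternative end of 49 nt was listed in all 3 LPS libraries and NMN 2 and in no LPS+NMN or Control library.

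Orc6, the smallest subunit of the complex, had 3, 14 and 4 events in LPS, 4, 4 and 4 in NMN and 4, 5 and 6 in LPS+NMN, against 4, 8 and 7 in Control. The value of 14 in LPS 2 stood alone, the next highest being 8. Orc3 had 8 to 15 events and Orc4 7 to 9 over all libraries, while Orc2 had 4 events in 11 libraries and 6 in LPS+NMN 1. Orc1, the ATPase that starts assembly, had 2 to 5 events, and Cdc6, which brings MCM to the origin, 2 to 6.

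The core helicase subunits hardly varied. Mcm2, Mcm3, Mcm4, Mcm5 and Mcm6 had 2 to 4 events in every library, and Mcm7 had 4 or 5 except for 9 in LPS 3. Mcm10, which helps the helicase start to unwind, had 8, 5 and 6 events in LPS, 4, 8 and 16 in NMN and 7, 6 and 5 in LPS+NMN, against 8, 7 and 9 in Control. NMN 3 stood alone at 16, with the next highest library at 9.

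Cdc7, Cdc45 and GINS act in firing the loaded helicase. Cdc7, the kinase that phosphorylates MCM, had 10, 10 and 8 events in LPS, 4, 6 and 7 in NMN and 5, 8 and 4 in LPS+NMN, against 8, 4 and 7 in Control. LPS libraries were the highest but met LPS+NMN and Control at 8 events. The difference for LPS+NMN against LPS was -0.67 ± 0.28 (SE, limma adjusted p = 0.93).

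GINS, which joins Cdc45 and MCM to form the active helicase, had more events in each Control library than in any treated library. Its 4 genes together had 13, 12 and 12 events in LPS, 13, 11 and 12 in NMN and 12, 11 and 13 in LPS+NMN, against 17, 14 and 15 in Control. Most of this came from Gins1, with 5, 4 and 4 events in LPS, 6, 3 and 5 in NMN and 5, 5 and 5 in LPS+NMN, against 8, 5 and 8 in Control. The Gins1 groups met at 5 events, and its difference was -0.57 ± 0.23 for LPS against Control (SE, limma adjusted p = 0.539). Gins4 had 3, 3 and 3 events in LPS, 3, 2 and 2 in NMN and 2, 2 and 2 in LPS+NMN, against 3, 3 and 2 in Control. The event behind this was skipping of a 91-nt coding exon, exon 7 of 8. It was listed in all 3 LPS libraries, NMN 1, Control 1 and Control 2, and in no LPS+NMN library.

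The polymerases and primase together had 36 to 53 events in LPS, 41 to 43 in NMN and 40 to 47 in LPS+NMN, against 42 to 51 in Control. Pola2, the regulatory subunit of polymerase alpha, which makes the first stretch of each new strand with primase, had 14, 6 and 8 events in LPS, 6, 6 and 6 in NMN and 6, 8 and 8 in LPS+NMN, against 8, 8 and 8 in Control. NMN and Control did not overlap, with a difference of -0.36 ± 0.24 (SE, limma adjusted p = 0.805), and LPS 1 stood alone at 14. Pole2, a subunit of the leading-strand polymerase epsilon, had 2, 2 and 2 events in LPS, 6, 7 and 4 in NMN and 6, 2 and 7 in LPS+NMN, against 6, 5 and 2 in Control. Its events in LPS 1, LPS 3 and Control 3 all lay on the strand opposite to the gene. On its own strand Pole2 had 0, 2 and 0 events in LPS, 4, 6 and 4 in NMN and 6, 2 and 6 in LPS+NMN, against 4, 3 and 0 in Control, so that LPS met LPS+NMN at 2 and overlapped Control. Pola1, Pold1, Pole and Prim1, catalytic subunits, had 2 to 6 events.

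The clamp loader subunit Rfc4 (chr16:23113943-23127737, minus strand, GRCm38), which helps to place Pcna on DNA, had an exchange of first exons. Their lengths are each given from 1 library. It had 3, 3 and 3 events in LPS, 4, 3 and 4 in NMN and 4, 4 and 4 in LPS+NMN, against 4, 4 and 4 in Control. A first exon of 292 nt was listed in all 3 LPS libraries and in no other. A first exon of 44 nt and the skipping of a 71-nt exon (chr16:23122230-23122300) were listed in all LPS+NMN and all Control libraries and in NMN 1 and NMN 3, and in no LPS library. The difference in number was -0.32 ± 0.14 for LPS against Control (SE, limma adjusted p = 0.604). Pcna itself had 3 events everywhere, and Rfc1 and Rfc2 had 2 to 5.

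The enzymes of nucleotide supply and the proliferation marker gave no separation. Rrm1 and Rrm2, the subunits of ribonucleotide reductase, had 2 to 4 events, and Top2a, which untangles replicated DNA, had 6 or 7. Mki67, the gene of the Ki-67 antigen of dividing cells, had 5, 3 and 9 events in LPS, 5, 6 and 3 in NMN and 3, 2 and 11 in LPS+NMN, against 7, 3 and 12 in Control. Every group held a value of 3, and NMN had none above 6.

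Of the genes that govern entry into S phase, cyclin E1 had the smallest p-values for NMN and LPS+NMN against Control. Ccne1 (chr7:38097984-38107534, minus strand, GRCm38), the activator of Cdk2 at that step, had 5, 5 and 5 events in LPS, 7, 6 and 7 in NMN and 7, 7 and 7 in LPS+NMN, against 5, 4 and 4 in Control. Every library with NMN was above every library without it. The difference was 0.59 ± 0.14 for LPS+NMN against Control, 0.53 ± 0.14 for NMN against Control and 0.42 ± 0.14 for LPS+NMN against LPS (SE), with limma adjusted p of 0.194, 0.334 and 0.822. None passed 0.05.

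The events of Ccne1 that set groups apart were first and last exons, whose lengths are each given from 1 library. A last exon of 654 nt was listed in all 3 NMN and all 3 LPS+NMN libraries, in LPS 3 and in no Control library. Another, of 27 nt, was listed in NMN 1, NMN 3 and all 3 LPS+NMN libraries and in no LPS or Control library. A first exon of 102 nt was listed in LPS 1, LPS 2 and all 3 Control libraries and in no library with NMN. A retained intron of 250 nt was listed in 8 libraries, 1 of them Control, and a skipped exon of 69 nt in NMN 2 alone. The grid of events shows both beside the first exon and the last exons that every library had.

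**Figure D3:**
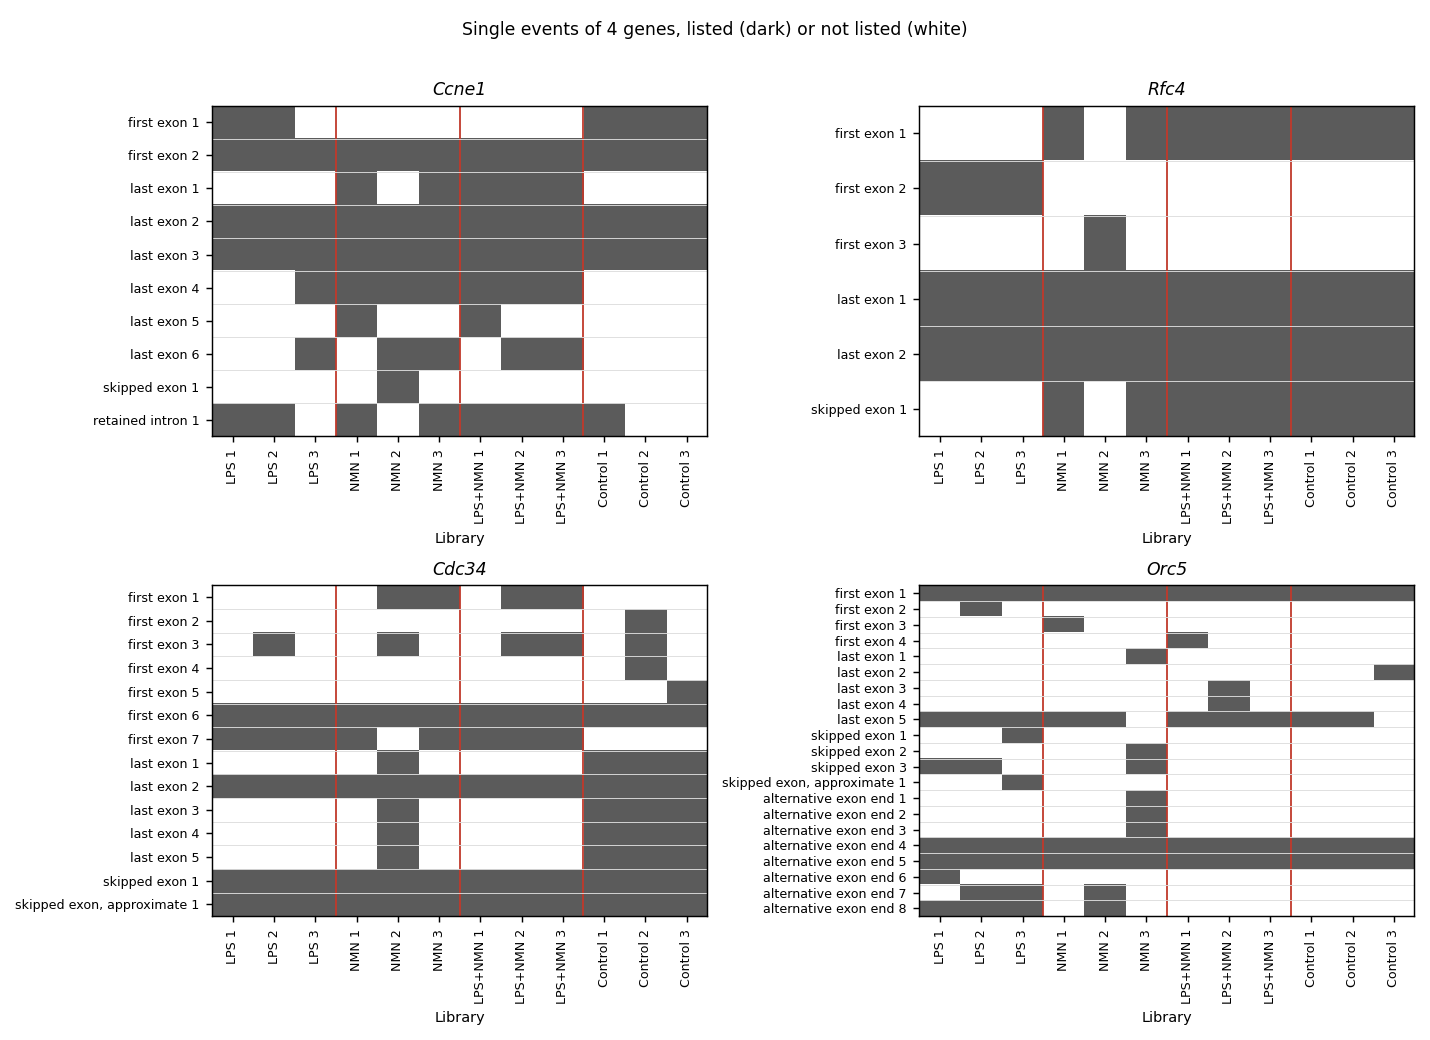
Presence (filled) of single transcript events of 4 genes (rows, numbered within their class) in each of the 12 libraries (columns, LPS, NMN, LPS+NMN and Control, with lines between groups). First exon 2 of Rfc4 (292 nt in 1 library) is in the 3 LPS libraries alone. First exon 1 of Ccne1 (102 nt in 1 library) is in no library with NMN.

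Of the other cyclins, Ccnd3 had the most events. The D-type cyclin Ccnd3, which links growth signals to Cdk4 and Cdk6, had 14, 8 and 11 events in LPS, 6, 12 and 11 in NMN and 14, 5 and 12 in LPS+NMN, against 6, 3 and 8 in Control. LPS libraries were at or above the highest Control library, with a difference of 0.89 ± 0.40 (SE, limma adjusted p = 0.628). Ccnd1, another D-type cyclin, had 2 to 4 events, and Ccna2, the cyclin of S phase, had 2 or 3. The mitotic cyclin Ccnb1 had 3, 3 and 3 events in LPS+NMN against 4, 4 and 4 in Control, with 4, 3 and 3 in LPS and 4, 3 and 3 in NMN. The event behind this was skipping of a 111-nt coding exon, exon 8 of 9, in LPS 1, NMN 1 and all 3 Control libraries.

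Among the kinases, Cdk4 had 7, 5 and 7 events in LPS, 5, 5 and 5 in NMN and 5, 5 and 7 in LPS+NMN, against 7, 7 and 7 in Control. NMN and Control did not overlap, with a difference of -0.42 ± 0.17 (SE, limma adjusted p = 0.658). The 2 forms of a skipped exon, of 234 and 252 nt, were listed in LPS 1, LPS 3, LPS+NMN 3 and all 3 Control libraries and in no NMN library. Cdk2 had 4 to 8 events, Cdk1 2 to 5 and Cdk6 3 to 5. The activating E2F1 had 3 events everywhere and the repressor E2f8 3 or 4, whereas E2f3 had 5 to 12.

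The phosphatases and genes of ubiquitin ligation come last. Cdc25a, which removes the inhibitory phosphate from CDKs, had 4, 4 and 5 events in LPS+NMN against 3, 3 and 3 in LPS, with a difference of 0.41 ± 0.16 (SE, limma adjusted p = 0.927). With 3, 4 and 3 events in NMN and 4, 3 and 3 in Control, both groups met LPS+NMN at 4. Cdc14b, a phosphatase, had 10, 10 and 12 events in LPS+NMN against 14, 13 and 20 in LPS, with a difference of -0.50 ± 0.33 (SE, limma adjusted p = 0.93). In NMN it had 18, 9 and 10 events and in Control 13, 20 and 7, and Control spanned every other group. With events on the annotated strand alone, Cdc14b had 9, 10 and 11 in LPS+NMN against 13, 10 and 19 in LPS, and these groups met at 10. Cdc20, the activator of the anaphase-promoting complex, had 2 or 3 events.

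Cdc27, a subunit of the anaphase-promoting complex, had 9, 11 and 9 events in LPS, 8, 7 and 7 in NMN and 7, 7 and 4 in LPS+NMN, against 7, 8 and 8 in Control. LPS libraries were above all others, also with exact and approximate forms counted once (8, 9 and 8 in LPS, 7, 6 and 6 in NMN and 7, 6 and 4 in LPS+NMN, against 6, 7 and 7 in Control). The difference was 0.30 ± 0.20 for LPS against Control and -0.64 ± 0.20 for LPS+NMN against LPS (SE), with limma adjusted p of 0.755 and 0.8. A pair of alternative ends, of 115 and 193 nt, was listed in all 3 LPS libraries and LPS+NMN 1 alone.

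Cdc34 (chr10:79682195-79688398, plus strand, GRCm38), the ubiquitin-conjugating enzyme that works with SCF ligases on CDK inhibitors, had 5, 6 and 5 events in LPS, 5, 10 and 6 in NMN and 5, 7 and 7 in LPS+NMN, against 8, 11 and 9 in Control. LPS and LPS+NMN libraries were all below Control. The difference was -0.70 ± 0.23 for LPS and -0.50 ± 0.23 for LPS+NMN, each against Control (SE), with limma adjusted p of 0.363 and 0.657. Of its last exons, 4 were listed in all 3 Control libraries and NMN 2 and in no other. Their positions in the catalogues were 79521014, 79523683, 79523687 and 79523690. The last 3 lie a few bases apart, so the 4 may not be separate features, and each adds to the Control numbers. In the other direction, a first exon (16 nt in 1 library) was listed in all 3 LPS and all 3 LPS+NMN libraries. It was also in NMN 1 and NMN 3, and in no Control library. Cdc123, which assembles the initiation factor eIF2 and is no cell cycle enzyme itself, had 9, 10 and 8 events in LPS+NMN against 6, 6 and 7 in LPS and 7, 7 and 7 in Control, with 6, 7 and 9 in NMN. Against LPS the difference was 0.45 ± 0.17 (SE, limma adjusted p = 0.875).

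**Figure D4:**
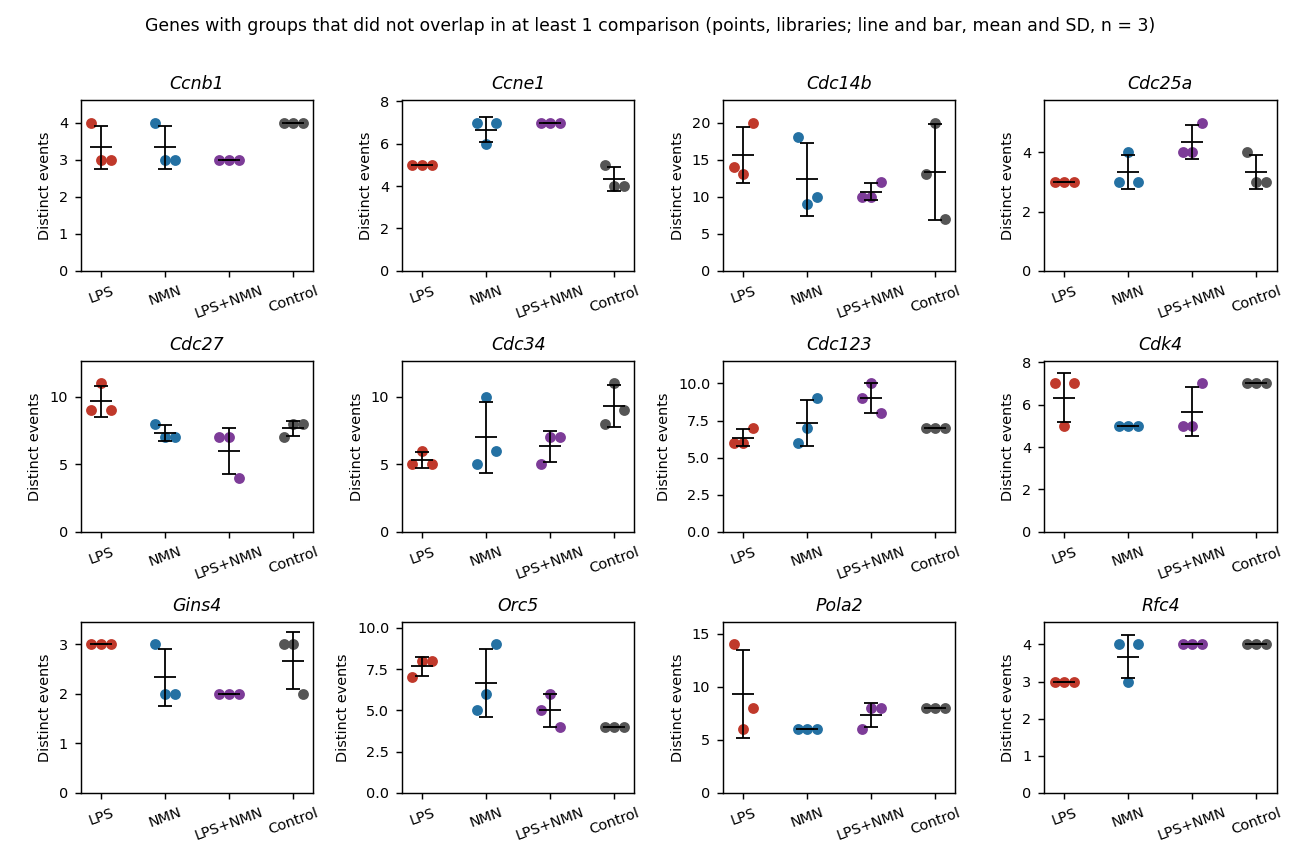
Number of distinct events (vertical axis) of the 12 genes whose groups did not overlap in at least 1 comparison; each point is a library, in the order LPS, NMN, LPS+NMN and Control, with the mean and SD (n = 3). Ccne1 has 6 or 7 events with NMN and 4 or 5 without it; Orc5 has 7 or 8 in LPS and 4 in Control.

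LPS against Control sets inflammatory stimulation against untreated cells. None of the 70 tested genes passed a limma adjusted p of 0.05 (11671 genes tested; 0.257% were called higher and 0.0428% lower). At an unadjusted p under 0.05, 2 were higher and 3 lower, where 3.57% and 3.9% of all genes were. Orc5 and Cdc27 lay above Control without overlap and Cdc34 and Rfc4 below, 2.86% of the 70 each way, against 2.52% and 2.69% of all genes. On the log2 scale, the mean was higher in LPS for 31 genes of the set, lower for 29 and equal for 10. The median log2 difference of the set was 0, as over all genes.

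NMN against Control gave the same picture: none passed by limma adjusted p (0.223% of all genes were called higher and 0.00857% lower), and 2 were higher and 2 lower at an unadjusted p under 0.05, where 3.48% and 3.52% of all genes were. Ccne1 and Orc5 were above Control without overlap and Cdk4 and Pola2 below, 2.86% each way, against 2.16% and 2.35% of all genes. The mean of log2(events + 1) was higher in NMN for 32 genes of the set, lower for 30 and equal for 8.

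LPS+NMN against Control gave no gene past a limma adjusted p of 0.05 (0.283% of all genes were called higher and 0.0514% lower). At an unadjusted p under 0.05, 1 was higher, Ccne1, and 0 were lower, where 3.91% and 3.55% of all genes were. Ccne1 and Cdc123 were above Control without overlap and Ccnb1 and Cdc34 below, 2.86% each way against 2.57% and 2.48%. The 3 comparisons share the Control libraries.

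LPS+NMN against LPS, the comparison the design text names, called 0 genes of the set and 0% of all genes in either direction by limma adjusted p. At an unadjusted p under 0.05, 5 genes of the set were higher and 4 lower, where 2.5% and 1.96% of all genes were. Ccne1, Cdc123, Cdc25a and Rfc4 were above LPS without overlap, and Cdc14b, Cdc27, Gins4 and Orc5 below, 5.71% each way against 1.8% and 1.42% of all genes. These counts are 4 genes each way, and no test of the share was made.

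The interaction asks whether NMN acted differently with LPS than without it. None of the 70 genes passed a limma adjusted p of 0.05 (0% of all genes were called higher and 0.0428% lower), and 1 was higher and 1 lower at an unadjusted p under 0.05, where 3.06% and 2.69% of all genes were. The lower was Orc5, at -1.12 ± 0.28 on the log2 scale (SE, limma adjusted p = 0.352), and the higher was Rfc4, at 0.43 ± 0.20 (SE, limma adjusted p = 0.843).

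Single events were also compared between groups. In LPS against Control, 7 of the 795 events were in all LPS and no Control library and 8 the reverse (0.881% and 1.01%, against 0.447% and 0.459% of all events). In NMN against Control they were 1 and 4 (0.126% and 0.503%, against 0.407% and 0.353%), and in LPS+NMN against Control 8 and 8 (1.01% each, against 0.477% and 0.441%). In LPS+NMN against LPS they were 5 and 3 (0.629% and 0.377%, against 0.304% and 0.269%). Several come from the same gene: last exons of Cdc34 made up 4 of the 8 events lost in LPS and 4 of the 8 lost in LPS+NMN, the same 4 in both. Of these 4, 3 have positions a few bases apart and may not be separate features. Of the 795 events, 0 were in every library treated with LPS, NMN or both and in no Control library, and 0.0848% of the events of all genes were, a share that amounts to less than 1 event in 795.

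The wider cell cycle machinery, taken from lists of CDK inhibitors and pocket proteins (10 tested genes), licensing and fork factors (30), checkpoint genes (18), mitosis genes (45) and APC/C and SCF genes (19), had 0 genes called by limma in any comparison. The smallest adjusted p was for Chek2, the checkpoint kinase activated by DNA breaks, with 3, 4 and 4 events in NMN against 11, 10 and 9 in Control (limma adjusted p = 0.0825), and 5, 7 and 9 in LPS and 7, 4 and 4 in LPS+NMN. No mitosis gene was called. More mitosis genes had a lower than a higher mean of log2(events + 1) in each treated group against Control. There were 30 lower and 9 higher in LPS, 27 and 15 in NMN, and 25 and 13 in LPS+NMN. At an unadjusted p under 0.05, 0 were higher and 2 lower in LPS, 0 and 1 in NMN, and 1 and 1 in LPS+NMN. The median log2 difference of the mitosis genes was -0.11 for LPS, -0.14 for NMN and -0.09 for LPS+NMN, where all genes had 0, and the 3 comparisons share the Control libraries. The summed events of the mitosis genes were 209 to 216 in LPS, 207 to 232 in NMN and 213 to 227 in LPS+NMN, against 233 to 238 in Control. For the licensing, checkpoint and APC/C and SCF lists, the sums of each treated group overlapped Control. CDK inhibitors and pocket proteins summed to 26 to 32 in LPS, 28 to 42 in NMN and 23 to 30 in LPS+NMN, against 33 to 39 in Control. Cdkn1a, the p53-induced CDK inhibitor, had 3 events in every library.

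Oligodendrocyte markers summed to 6 to 8 events in LPS, 4 to 8 in NMN and 5 to 8 in LPS+NMN, against 9 to 13 in Control. Of the 7 on that list, 5 were listed in some library and 2 in all 12, and the defining genes Mog and Olig1 were in none. Microglia and macrophage markers summed to 44 to 49 in LPS, 41 to 48 in NMN and 43 to 51 in LPS+NMN, against 46 to 53 in Control. The part of these levels, and of the larger Control 1 catalogue, in the differences above was not tested. Of the 795 events, 50, in 24 of the genes, were listed on the strand opposite to the gene's annotation, and the sources used here do not say whether the libraries kept strand.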

How the data were processed

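The authors deposited 1 catalogue of transcript events per library; per the file headers a line holds the kind of event, the gene and its place in the genome, with no count, level or depth. HOMER, MACS2 2.1.0, BWA 0.7.12 and the build GRCm38 appear in the submitters' processing notes. The sources used here do not say which program produced the event lists. The files' positions belong to another, unnamed mouse assembly, so exons were matched to GENCODE M21 (GRCm38) by exon length and both flanking intron lengths, and no position was converted.

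Groups came from the sample titles. Partner lines of an event pair and repeats were dropped, and distinct events per gene and library were counted (Python 3.11.15, pandas 2.3.3). In R 4.3.3, limma 3.58.1 (trend and robust moderation) was fitted to log2(events + 1) with 4 group means, on 11671 genes with at least 1 event in 3 libraries and a value that varied. Below the filter were 1500 genes, and 1104 had the same number in all libraries. Of the 81 genes of the set, 70 were tested, 10 did not vary and Ccna1 fell below the filter. P-values were adjusted by Benjamini-Hochberg over all genes tested, with a threshold of 0.05. The fit was tested on simulated data.

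Genes were named where they passed the threshold, where groups did not overlap (up to 5 each way per comparison), where listed in some libraries only, where among the 10 with most events, or where on a fixed anchor list; others named were chosen after their values were seen. The genes and lists were chosen with earlier results of these data known. Alternatives were the pseudocount, the filter, event classes, the moderation, the libraries fitted, the forms counted once, the replicate block, leaving out each library and, added after seeing the data, events on the annotated strand alone.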

Additional observations from a re-analysis of the deposited data

Results flagged for a closer look

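Orc5, a subunit of the origin recognition complex, lay on opposite sides of its comparison libraries with NMN: every NMN library (5, 6 and 9 events) was above every Control library (4, 4 and 4), and every LPS+NMN library (5, 6 and 4) was below every LPS library (7, 8 and 8). The effect of NMN with LPS minus that without it was -1.12 on the log2(events + 1) scale, with a limma adjusted p of 0.352, which did not pass 0.05. Of the 21 distinct events of Orc5, 14 were listed in 1 library alone, and NMN 1 was above Control through such an event.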

How the results depend on the processing

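Under 24 alternative settings, giving 95 counts over the comparisons, 0 genes of the set were called, and the range over leaving out each library was 0 to 0. Of 1089 recomputed differences of 12 named genes, 19 changed sign, none of them called; Orc5 in LPS+NMN against LPS ranged from -1.07 to 0.25, and Cdc27 in LPS against Control from -0.21 to 0.61, while the 0.59 of Ccne1 in LPS+NMN against Control ranged from 0.49 to 0.68, with limma adjusted p of 0.109 to 0.776. The counts over all genes moved more. With at least 5 events in 3 libraries, the calls were 3 in LPS against Control (35 as reported), 3 in NMN against Control (27), 10 in LPS+NMN against Control (39) and 1 in the interaction (5); here fewer genes were tested. With splicing events alone they were 3, 2, 8 and 0, and 1 in LPS+NMN against LPS (0 as reported). Fitting only the groups compared gave 1, 1 and 3 for LPS, NMN and LPS+NMN against Control, with fewer libraries in each fit. LPS+NMN against LPS had 3 calls with a pseudocount of 0.5 and 6 without trend and robust moderation, where the interaction had 39, and 1 with events on the annotated strand alone, an alternative chosen after seeing the data; the cause was not tested. Leaving out each library gave 32 to 55 calls in LPS against Control, 34 to 44 in NMN against Control, 32 to 55 in LPS+NMN against Control, 0 to 11 in LPS+NMN against LPS (11 without LPS replicate 1) and 4 to 6 in the interaction. The 55 in LPS against Control were without Control replicate 1, and NMN against Control had 44 without Control replicate 1 or 2 and 43 without Control replicate 3. The replicate numbers did not pair the libraries: over 18 same-number pairs r ran from -0.0271 to 0.022, and 4 of 12 libraries correlated best with their own number. With a replicate block the calls over all genes were 33, 26, 32, 0 and 4 and those in the set 0. Depth is unknown, so an event not listed cannot be told from one not covered.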
